A study of Mus musculus with 6 samples.

Results

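The 36 genes described here encode the enzymes, transporters and regulators of sterol and fatty acid synthesis. They were taken by gene symbol from a table of 56691 genes, and all 36 were found. By textbook role they fall into a sterol arm of 21 genes, a fatty acid arm of 10 genes and 5 regulators. RNA was measured in 4T1 cells, a mouse mammary carcinoma line, after a change to fresh medium holding either vehicle or KIRA6 at 1 µmol/L for 4 h, with 3 libraries in each group. KIRA6 binds the kinase domain of IRE1α, which senses unfolded protein in the endoplasmic reticulum (ER), and dampens the RNase of the same protein. Whether the 3 libraries of a group were grown as independent cultures is not stated, so the p-values cover just the spread among these samples, which may be technical.

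Cells make cholesterol from acetyl-CoA by the mevalonate pathway, which also feeds prenylation, dolichol and ubiquinone. Fatty acids start from the same acetyl-CoA and are built by carboxylation, repeated condensation, elongation and desaturation. Both arms are controlled by SREBP transcription factors, which are held in the ER by SCAP and the INSIG proteins while sterol is plentiful and are cleaved in the Golgi when it is scarce. SREBP2, from Srebf2, acts mainly on sterol genes, and SREBP1, from Srebf1, mainly on fatty acid genes. Tumour cells often run both arms at a high rate to supply membranes.

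SREBPs bind sterol regulatory elements close to the start of their target genes, often beside a CCAAT box, the site of the cofactor NF-Y. The 250 bases upstream of the start are shown for 6 members whose RNA is described below: 3 mevalonate genes and Acss2, which were higher with KIRA6, Tmem97, which was lower, and Fasn, which differed most between libraries of 1 group. The sequences are from RefSeq on build GRCm38.p6, 5′ to 3′ in the direction of the gene. Capitals mark matches on either strand to the sterol regulatory element TCACNCCAC, the E-box CACGTG (no match in these 6 stretches) and the CCAAT box CCAAT. In Fasn a match on each strand overlaps the other in 1 run of capitals.
Hmgcs1 (chr13:119690101-119690350, plus strand): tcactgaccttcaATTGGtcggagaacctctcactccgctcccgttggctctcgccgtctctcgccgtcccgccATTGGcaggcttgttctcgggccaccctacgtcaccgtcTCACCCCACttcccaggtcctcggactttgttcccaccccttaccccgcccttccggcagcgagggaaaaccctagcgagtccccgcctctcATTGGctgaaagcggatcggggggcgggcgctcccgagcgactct
Mvk (chr5:114444019-114444268, plus strand): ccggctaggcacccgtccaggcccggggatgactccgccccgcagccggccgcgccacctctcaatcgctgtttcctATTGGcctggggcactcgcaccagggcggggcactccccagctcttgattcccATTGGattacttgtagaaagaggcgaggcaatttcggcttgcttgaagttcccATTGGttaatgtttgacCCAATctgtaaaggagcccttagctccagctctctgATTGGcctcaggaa
Mvd (chr8:122443423-122443672, minus strand): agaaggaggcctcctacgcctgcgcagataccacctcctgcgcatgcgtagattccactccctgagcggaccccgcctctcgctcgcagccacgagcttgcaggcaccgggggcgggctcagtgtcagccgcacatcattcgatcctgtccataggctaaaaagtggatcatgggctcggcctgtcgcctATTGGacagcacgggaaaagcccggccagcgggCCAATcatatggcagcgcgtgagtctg
Acss2 (chr2:155517793-155518042, plus strand): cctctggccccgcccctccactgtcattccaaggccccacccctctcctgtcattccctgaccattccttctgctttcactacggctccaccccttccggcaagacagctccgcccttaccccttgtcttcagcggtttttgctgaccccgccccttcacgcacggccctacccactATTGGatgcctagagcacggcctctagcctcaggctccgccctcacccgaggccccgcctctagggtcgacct
Fasn (chr11:120824548-120824797, minus strand): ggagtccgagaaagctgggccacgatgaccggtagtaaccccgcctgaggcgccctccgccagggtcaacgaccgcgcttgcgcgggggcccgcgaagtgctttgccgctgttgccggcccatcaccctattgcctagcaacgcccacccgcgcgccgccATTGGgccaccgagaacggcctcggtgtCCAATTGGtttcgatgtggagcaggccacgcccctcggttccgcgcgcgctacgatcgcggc
Tmem97 (chr11:78550736-78550985, minus strand): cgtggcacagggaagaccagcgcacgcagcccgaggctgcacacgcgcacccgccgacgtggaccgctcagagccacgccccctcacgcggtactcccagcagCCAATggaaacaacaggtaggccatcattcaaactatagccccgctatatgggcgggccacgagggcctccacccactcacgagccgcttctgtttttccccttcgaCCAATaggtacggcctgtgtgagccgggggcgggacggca

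The table of promoter windows, each from 250 bases before to 50 after a start, held 29 of the 36 members in 37 windows. TCACNCCAC was found in 1 member window, that of Hmgcs1, starting 137 bases upstream, and in 1.24% of all 32851 windows. CCAAT was found for 24 of the 29 members, in 25 of 37 windows (67.6%), against 37.4% of all windows. In the sterol arm 16 of 17 members held it, in the fatty acid arm 4 of 7 and among the regulators 4 of 5, against 41.1% of all genes with a window. A gene with more than 1 window, as among the regulators (5 genes, 10 windows), has more chances of a match. Tmem97, the sterol arm gene that fell, holds CCAAT at 147 and 40 bases upstream, as the higher genes Mvd (60 and 27 bases) and Acss2 (73 bases) also do. A match is a run of letters and not a measured binding site. TCACNCCAC was the sole form of the sterol regulatory element searched for, so a window without a match was not shown to lack the element.

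The libraries held an estimated 16496950 to 21347850 fragments assigned to genes. The share of fragments from mitochondrially encoded genes was 1.75% to 2.03% in vehicle and 2.66% to 3.25% with KIRA6, and its part in the results below was not tested. The epithelial markers Epcam, Cdh1, Krt7, Krt8, Krt18 and Krt19 summed to 1354 to 1495 FPKM (fragments scaled by gene length and library depth) in vehicle and 1552 to 1664 FPKM with KIRA6. The 6 adipocyte markers summed to 0.09 FPKM at most, with Adipoq, Plin1, Lep and Cidec at 0 in every library. Of 6 leukocyte markers 5 stayed under 1 FPKM and 3 were at 0 throughout, and the list, nearly all Cd68, summed to 1.66 to 2.63 FPKM in vehicle and 3.07 to 3.80 FPKM with KIRA6. Of 6 fibroblast and endothelial markers 5 stayed under 1 FPKM, and the list, mainly Pdgfra, summed to 0.45 to 0.81 FPKM in vehicle and 1.87 to 3.75 FPKM with KIRA6. Vehicle replicate 3 and KIRA6 replicate 1 stood apart from the rest of their groups. The main results that rest on them are given both with these libraries and after removal of 1 or both.

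All 36 members passed the filter of a mean of at least 0.5 FPKM and were tested. In the limma fit over all genes 11 members passed an adjusted p (Benjamini-Hochberg) of 0.05: 8 rose and 1 fell in the sterol arm, 1 rose in the fatty acid arm and 1 rose among the regulators. Over all 11778 genes tested, 15.6% were called higher and 7.98% lower with KIRA6. The sterol arm had 38.1% of its members called higher, above that background in the fit of all 6 libraries but not in every fit that left out 1 (given below), the fatty acid arm 1 of 10 and the regulators 1 of 5. The median log2 fold change was 0.47 in the sterol arm and 0.21 in the fatty acid arm, and 0.16 over all tested genes. The order of the arms turned with 1 library: leaving out vehicle replicate 3 gave medians of 0.27 (sterol) and 0.53 (fatty acid), and leaving out KIRA6 replicate 1 gave 0.47 and 0.51. The difference between the arms was not tested, since the members were proposed with results known. Fold changes were taken on log2(FPKM + 0.5), so those of weakly expressed genes come out too small. In RNA from whole cultures, fewer cells of a type and less RNA per cell cannot be told apart.

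**Figure D1:**
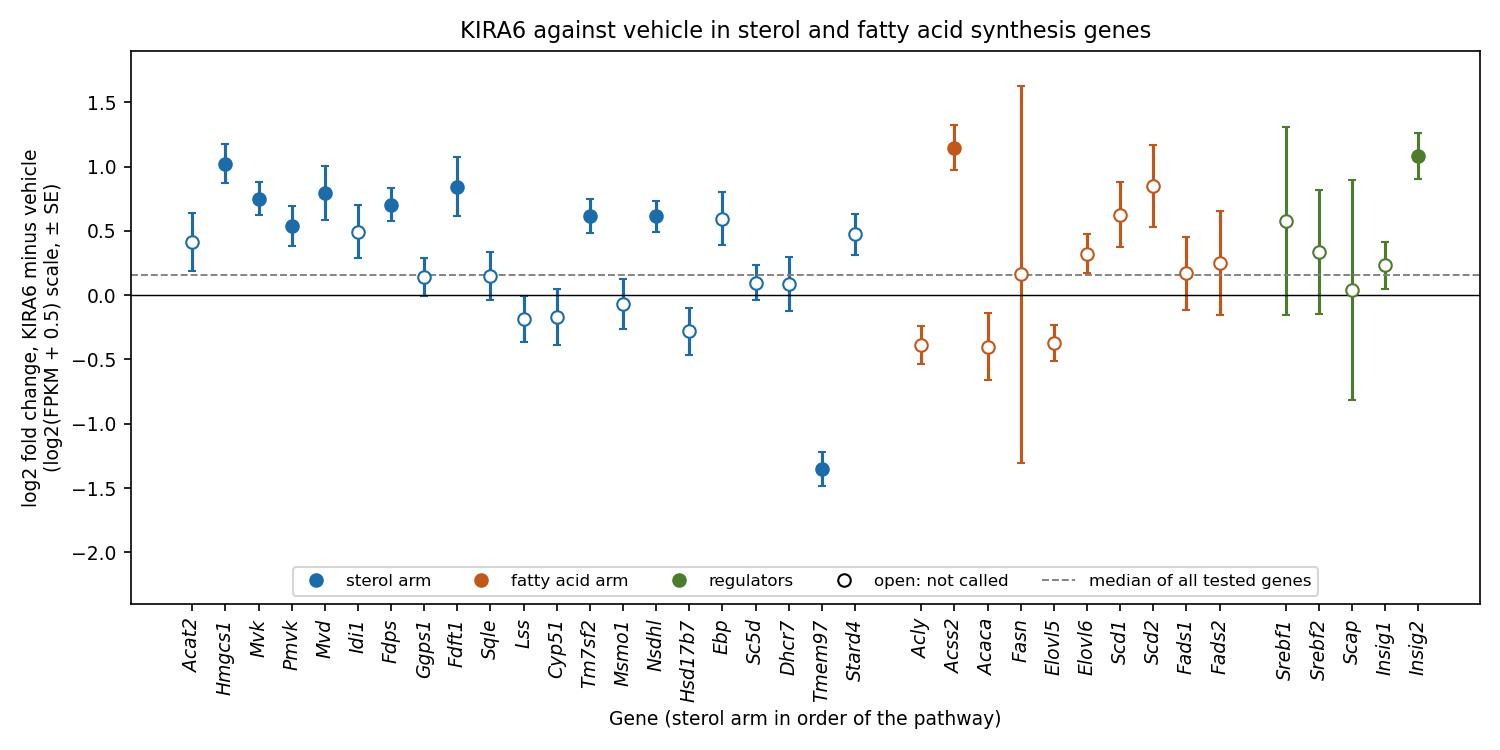
Log2 fold change (KIRA6 minus vehicle, on the log2(FPKM + 0.5) scale) of each of the 36 genes, with its limma standard error from 3 against 3 libraries; filled points passed an adjusted p of 0.05, and the dashed line is the median of all tested genes, 0.16. The filled points of the sterol arm lie between 0.54 and 1.02 apart from Tmem97 at −1.35, and Fasn has the widest bar.

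The libraries were arranged as follows in each arm. The sterol arm's median level, relative to the vehicle mean of each gene, was 0.08, 0.03 and −0.17 (log2) in the vehicle libraries and 0.42, 0.42 and 0.41 in the KIRA6 libraries. These groups did not overlap. Nor did the groups overlap in the size factor, the median over tested genes of a library's level relative to the gene's mean over libraries. It was 0.945, 0.949 and 0.925 in vehicle and 1.04, 1.07 and 1.11 with KIRA6. The part of this general shift in the separation of the sterol arm was not tested. The fatty acid arm's median was −0.31, −0.14 and 0.45 in vehicle and −0.27, 0.42 and 0.58 with KIRA6, so that the groups overlapped, with vehicle replicate 3 among the high libraries and KIRA6 replicate 1 among the low. The regulators showed the same arrangement more widely, at −0.65, −0.24 and 0.89 in vehicle and −0.44, 0.76 and 0.76 with KIRA6.

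**Figure D2:**
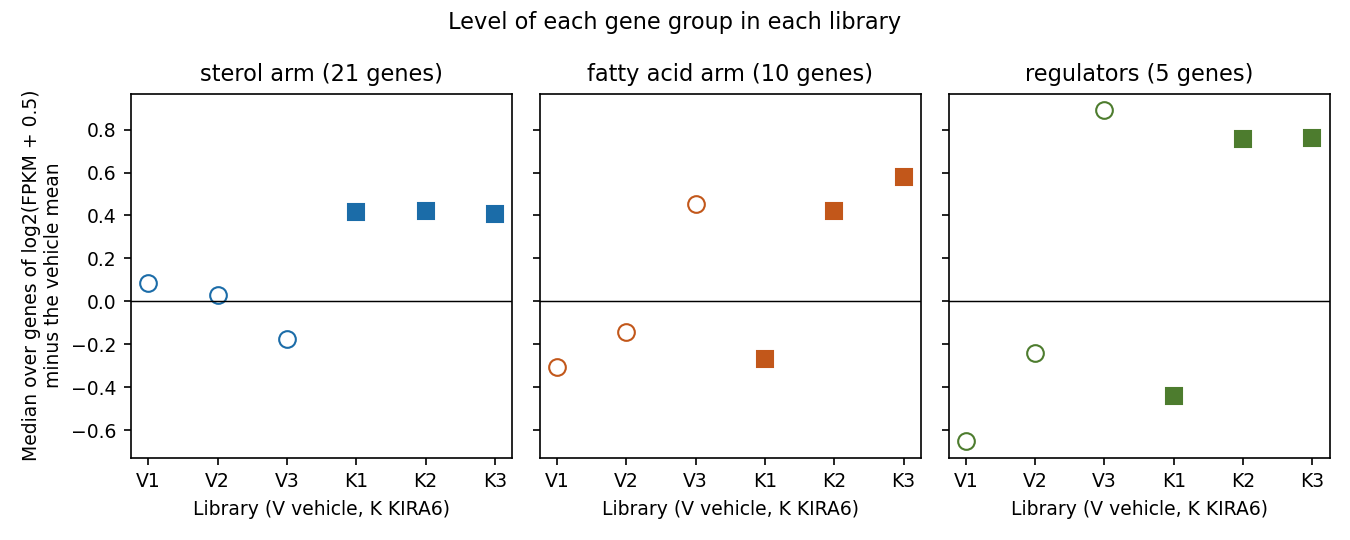
Median over the genes of each group of log2(FPKM + 0.5) minus the gene's vehicle mean, for each library (V1 to V3, vehicle replicates; K1 to K3, KIRA6 replicates). In the sterol arm the 3 KIRA6 libraries lie between 0.41 and 0.42, above all vehicle libraries, and in the other groups V3 is high and K1 is low.

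Most of the called sterol genes act early in the pathway. The 9 genes from acetoacetyl-CoA to squalene (with Ggps1 on its branch) included 6 that were called higher and none lower, and their median log2 fold change was 0.70. In all 9 every KIRA6 library was above every vehicle library, an arrangement that 27.7% of all tested genes had. Over all 36 members the groups did not overlap in 18, of which 15 were higher and 3 lower (Tmem97, Acly and Elovl5), against 41.8% of tested genes in either direction and 14.1% in the lower direction. The 10 genes from squalene to cholesterol included 2 called higher and none lower, with a median of 0.09. Called higher were 66.7% of the early genes and 20% of the later ones, against 15.6% of all tested genes. This division of the arm was made after the values were seen, so the difference between the stages was not tested.

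Hmgcs1, which condenses acetoacetyl-CoA to HMG-CoA (chromosome 13, 120151915 to 120169796 on GRCm39), was at 27.01, 23.71 and 20.7 FPKM in vehicle and 48.76, 44.24 and 53.22 FPKM with KIRA6. Every KIRA6 library was above every vehicle library. Its log2 fold change was 1.02 ± 0.15 (SE, limma adjusted p = 0.005055), the largest increase in the sterol arm, and its call held in all 19 alternative fits. Hmgcs1 is also the 1 member with TCACNCCAC in its promoter window, printed above.

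The kinases and the decarboxylase that turn mevalonate into isopentenyl diphosphate rose as well. Mvk, mevalonate kinase, was at 8.85, 8.66 and 9.9 FPKM in vehicle and 17, 15.72 and 14.47 FPKM with KIRA6, a rise from 9.14 ± 0.668 to 15.7 ± 1.27 FPKM (SD, n = 3 each; limma adjusted p = 0.009291). Pmvk, phosphomevalonate kinase, was at 17.03, 15.36 and 12.97 FPKM in vehicle and 24.42, 22.21 and 19.79 FPKM with KIRA6, close to the threshold (limma adjusted p = 0.04725). Mvd, the decarboxylase, was at 6.32, 8.18 and 11.12 FPKM in vehicle and 14.14, 16.12 and 14.2 FPKM with KIRA6 (limma adjusted p = 0.03712). The groups of all 3 genes did not overlap, and their log2 fold changes were 0.75, 0.54 and 0.79. The call of Pmvk ended when any 1 library was left out (adjusted p up to 0.15), that of Mvd when any but vehicle replicate 3 was (up to 0.138), and that of Mvk without vehicle replicate 2 or KIRA6 replicate 2 (up to 0.0572).

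Fdps, which makes farnesyl diphosphate, was at 21.3, 21.19 and 22.23 FPKM in vehicle and 34.62, 39.53 and 32.47 FPKM with KIRA6. The log2 difference was 0.70 ± 0.13 (SE) with a limma adjusted p of 0.01088. Fdft1, squalene synthase, which commits the pathway to sterols, was at 24.76, 25.39 and 15.85 FPKM in vehicle and 47.82, 34.46 and 35.99 FPKM with KIRA6. Neither gene's groups overlapped, and for Fdft1 the log2 difference was 0.84 ± 0.23 (SE) with a limma adjusted p of 0.03988. The call of Fdps ended without vehicle replicate 2 or KIRA6 replicate 2 (adjusted p up to 0.0618), and that of Fdft1 when any library but vehicle replicate 3 was left out (up to 0.0944). Its gene shares 774 bases with Ctsb on the opposite strand, and which strand setting the counting used is not given in the sources at hand. The mean of Ctsb was 61.4 FPKM in vehicle and 67.0 FPKM with KIRA6.

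The remaining early members were not called. Acat2, which makes acetoacetyl-CoA, had a log2 fold change of 0.41 (adjusted p = 0.2334), and Idi1, the isomerase, of 0.49 (adjusted p = 0.1352). Both had 1 low vehicle library, replicate 3, at 33.48 FPKM for Acat2 and 8.46 FPKM for Idi1. With vehicle replicate 3 and KIRA6 replicate 1 both removed, their log2 fold changes were 0.058 and 0.28, without a call. Ggps1, which makes geranylgeranyl diphosphate for prenylation, had 3.72 ± 0.427 and 4.14 ± 0.224 FPKM and a log2 fold change of 0.14, below the median of all genes.

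Past squalene, Tm7sf2 and Nsdhl rose. Tm7sf2, a sterol C14-reductase, was low, at 1.2, 1.29 and 1.38 FPKM in vehicle and 2.29, 2.16 and 2.28 FPKM with KIRA6 (log2 fold change 0.62, limma adjusted p = 0.01907). Its gene overlaps Vps51 by 532 bases on the same strand, so their reads may be split between them. Nsdhl, a sterol dehydrogenase that takes part in C4-demethylation, was at 15.75, 16.42 and 15.03 FPKM in vehicle and 25.19, 24.84 and 22.92 FPKM with KIRA6 (log2 fold change 0.61, limma adjusted p = 0.01305). Neither gene's groups overlapped. Both calls were lost on leaving out replicate 1 or 2 of vehicle or replicate 2 of KIRA6, and that of Tm7sf2 also on leaving out replicate 3 of KIRA6 (adjusted p up to 0.0843 for Tm7sf2 and 0.0695 for Nsdhl). Ebp, the sterol isomerase, had 11.5 ± 2.44 and 17.6 ± 3.17 FPKM and missed the threshold (log2 fold change 0.59, adjusted p = 0.08095), and was called without vehicle replicate 3 (adjusted p = 0.0244).

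The other 7 enzymes of this stage were not called. Sqle, squalene epoxidase, an oxygen-requiring and rate-controlling step, was at 17.49, 20.89 and 24.69 FPKM in vehicle and 19.88, 22.54 and 27.79 FPKM with KIRA6. The groups overlapped, and the log2 fold change of 0.15 ± 0.19 (SE, adjusted p = 0.6093) equalled that of the median gene within its error. Sc5d and Dhcr7, which act late in cholesterol synthesis, had log2 fold changes of 0.10 and 0.09. Lss (the cyclase that forms lanosterol), Cyp51 (its demethylase), Msmo1 and Hsd17b7 (both in C4-demethylation) had −0.19, −0.17, −0.07 and −0.28, with adjusted p from 0.3088 to 0.8328. With vehicle replicate 3 and KIRA6 replicate 1 both removed, Cyp51 and Msmo1 were called lower (log2 fold changes of −0.49 and −0.35), Dhcr7 was called higher (0.39), and Lss stood at 0.00055.

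Of the sterol arm's 21 genes 5 had a negative log2 fold change, and of these Tmem97 alone was called lower in the fit of all 6 libraries. Tmem97 is a sterol-regulated membrane protein known as the sigma-2 receptor, which binds the lysosomal cholesterol transporter NPC1. It was at 115.06, 115.32 and 131.96 FPKM in vehicle, the highest mean of the 36 genes, and at 46.47, 51.14 and 43.57 FPKM with KIRA6. The highest KIRA6 library was far below the lowest vehicle library. Its log2 fold change was −1.35 ± 0.13 (SE, limma adjusted p = 0.001509), the largest change of any member in either direction, and its call held in all 19 alternative fits. Stard4, a cytosolic carrier of cholesterol, had 7.42 ± 1.22 and 10.4 ± 0.702 FPKM without a call (log2 fold change 0.47, adjusted p = 0.07748). It was called higher with vehicle replicate 3 and KIRA6 replicate 1 both removed (0.37, limma adjusted p = 0.0392).

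The count of 8 higher sterol genes depended on single libraries. Leaving out vehicle replicate 1, 2 or 3 gave 3, 1 and 8 such genes, and leaving out KIRA6 replicate 1, 2 or 3 gave 5, 1 and 4. In the fits with 1 sterol gene (4.76% of the arm), the share called higher over all genes was 7.32% on leaving out vehicle replicate 2 and 6.94% on leaving out KIRA6 replicate 2, so that the arm was below the background there. Median-ratio scaling of the libraries, which set the median of all genes to −0.008, left 4. Over the 6 fits that left out 1 library, the log2 fold change kept its sign in all 8 genes called higher. It ran from 0.93 to 1.12 for Hmgcs1, 0.70 to 0.81 for Mvk and 0.62 to 0.76 for Fdps. The range was 0.58 to 0.65 for both Tm7sf2 and Nsdhl, and 0.44 to 0.63 for Pmvk. The widest ranges were those of Mvd, 0.61 to 0.99, and Fdft1, 0.63 to 0.96.

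In the fatty acid arm only Acss2 was called. Acss2 makes acetyl-CoA from acetate in the cytosol and nucleus. It was at 1.1, 1.56 and 1.1 FPKM in vehicle and at 3.86, 3.1 and 3.14 FPKM with KIRA6, so that the lowest KIRA6 library was above the highest vehicle library. Its log2 fold change was 1.15 ± 0.17 (SE, limma adjusted p = 0.005467), the largest increase of the 36 genes, and its call held in all 19 alternative fits. The gene (chromosome 2, 155359868 to 155427644 on GRCm39) overlaps Gss on the opposite strand by 22544 bases. The means of Gss were 2.99 (vehicle) and 3.78 FPKM (KIRA6).

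**Figure D3:**
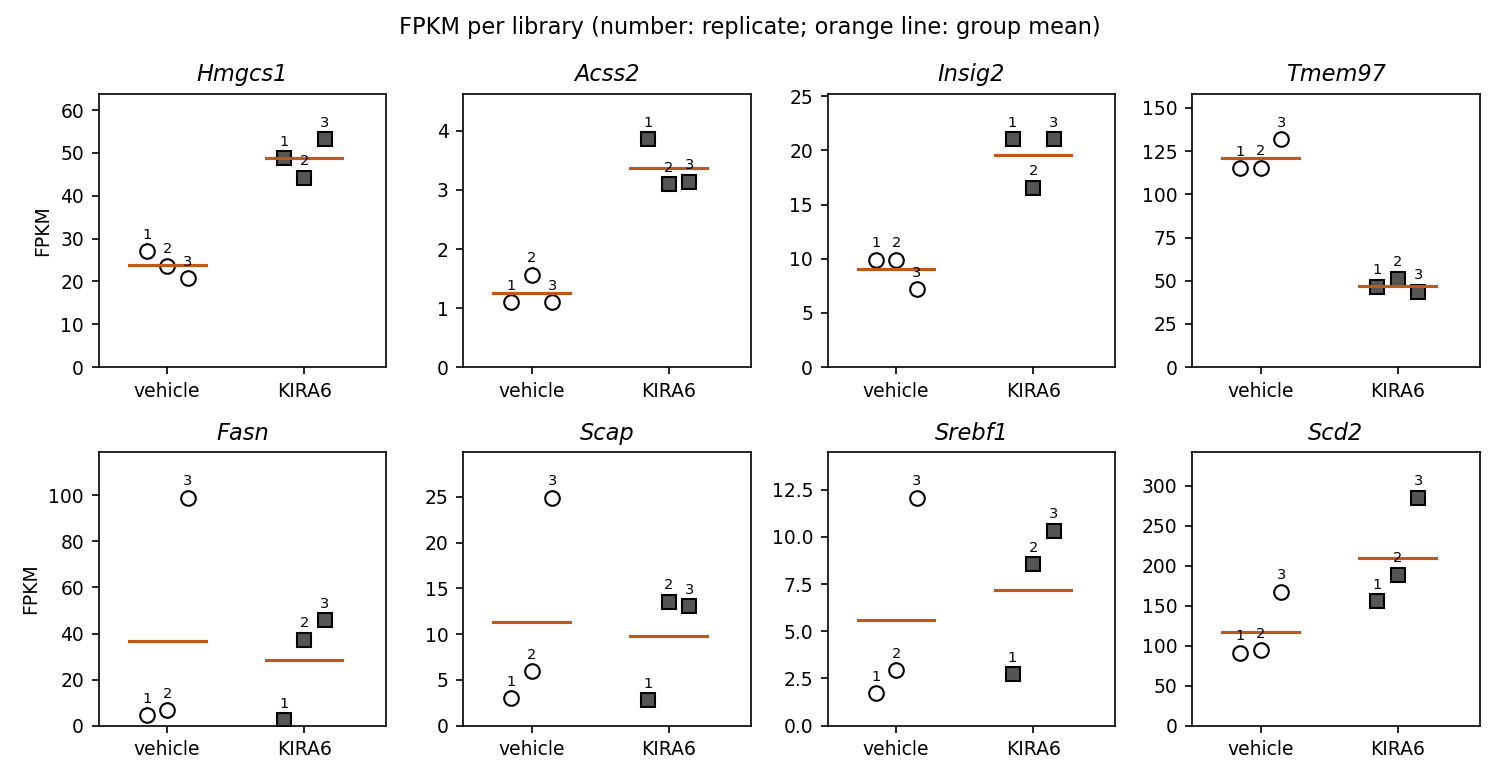
FPKM of 8 genes in each library (open circles, vehicle; filled squares, KIRA6; the number is the replicate; the orange line is the mean of 3 libraries). In Hmgcs1, Acss2, Insig2 and Tmem97 the groups do not overlap, while in Fasn, Scap and Srebf1 vehicle replicate 3 is the highest library and KIRA6 replicate 1 is at or near the lowest.

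Acly, which makes acetyl-CoA from citrate and so supplies the same pool as Acss2, leaned the other way. It was at 72.79, 83.69 and 75.94 FPKM in vehicle and 59.02, 51.53 and 67.48 FPKM with KIRA6, without overlap, and differed by −0.39 ± 0.15 (log2, SE; limma adjusted p = 0.1069). Acaca, acetyl-CoA carboxylase, had 10.3 ± 3.10 and 7.65 ± 2.08 FPKM (log2 fold change −0.40, adjusted p = 0.3127), and the elongase Elovl5 had 30.9 ± 1.35 and 23.9 ± 2.92 FPKM (−0.37, adjusted p = 0.09788). None of the 3 was called. Median-ratio scaling called Acly and Elovl5 lower (adjusted p = 0.0327 and 0.0313), and a correction for GC content and gene length called all 3 lower (adjusted p = 0.0273, 0.0483 and 0.0108 for Acly, Elovl5 and Acaca).

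Fasn, the fatty acid synthase (chromosome 11, 120696672 to 120715373), was at 4.42, 6.73 and 98.99 FPKM in vehicle and 2.34, 37.29 and 45.67 FPKM with KIRA6. Vehicle replicate 3 had 22.4 times the level of vehicle replicate 1, and KIRA6 replicate 3 had 19.5 times that of KIRA6 replicate 1. The lowest of the 6 libraries held an estimated 547 fragments of Fasn, and the source of this spread was not tested. The log2 fold change of 0.16 ± 1.46 (SE, adjusted p = 0.9537) says nothing about direction. Its spread within groups was an SD of 2.30 (log2), at the 99.99th percentile of the tested genes.

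The desaturases came in pairs of neighbouring paralogues, all 4 on chromosome 19. Scd2 was at 90.81, 93.92 and 167.19 FPKM in vehicle and 155.73, 188.59 and 284.95 FPKM with KIRA6. Scd1 was lower throughout, at 8.6, 9.6 and 14.97 FPKM in vehicle and 14.23, 15.42 and 21.8 FPKM with KIRA6. Both place a double bond at carbon 9 of saturated fatty acids, and in both the groups overlapped through vehicle replicate 3. Scd2 differed by 0.85 ± 0.32 and Scd1 by 0.63 ± 0.26 (log2, SE), with limma adjusted p of 0.09948 and 0.1248. Without vehicle replicate 3 both were called higher, at 1.13 and 0.86 (limma adjusted p = 0.0214 and 0.0244). Scd1 and Scd2 are similar in sequence and may share reads.

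Fads1 and Fads2, the delta-5 and delta-6 desaturases of polyunsaturated fatty acids, were not called. Fads2 was at 23.46, 26.4 and 54.92 FPKM in vehicle and 24.2, 47.05 and 50.49 FPKM with KIRA6. Fads1 was at 7.25, 7.78 and 13.69 FPKM in vehicle and 7.92, 11.15 and 12.72 FPKM with KIRA6. In both, vehicle replicate 3 was the highest of the 6 libraries and KIRA6 replicate 1 the lowest of its group, and the log2 fold changes were 0.25 ± 0.41 and 0.17 ± 0.28 (SE). Elovl6, which extends palmitate, had 8.60 ± 0.312 and 10.9 ± 1.66 FPKM (log2 fold change 0.32, adjusted p = 0.1724). With vehicle replicate 3 and KIRA6 replicate 1 both removed, Elovl6 was called higher (0.42, limma adjusted p = 0.0259).

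Of the regulators, Insig2 rose. Insig2 encodes 1 of the proteins that retain SCAP and SREBP in the ER (chromosome 1, 121232082 to 121260318). It was at 9.93, 9.93 and 7.2 FPKM in vehicle and 21.03, 16.58 and 21.05 FPKM with KIRA6, without overlap. Its log2 fold change was 1.08 ± 0.18 (SE, limma adjusted p = 0.007956), and its call held in all 19 alternative fits. Its paralogue Insig1, itself a target of SREBPs, was at 18.79, 18.36 and 13.38 FPKM in vehicle and 22.44, 17.22 and 19.66 FPKM with KIRA6. The groups overlapped, and the log2 fold change was 0.23 ± 0.18 (SE, adjusted p = 0.4012). Insig1 had the higher mean level in vehicle, while the means with KIRA6 were 19.8 FPKM for Insig1 and 19.6 FPKM for Insig2.

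The SREBP genes and Scap varied with the library. Srebf1 was at 1.71, 2.93 and 12.08 FPKM in vehicle and 2.72, 8.55 and 10.33 FPKM with KIRA6. Srebf2 was at 5.99, 8.14 and 18.41 FPKM in vehicle and 7.0, 15.94 and 16.78 FPKM with KIRA6. Scap, the sterol sensor that escorts SREBPs to the Golgi, was at 2.97, 5.97 and 24.91 FPKM in vehicle and 2.76, 13.52 and 13.06 FPKM with KIRA6. In all 3, vehicle replicate 3 was the highest library of the 6. Srebf1, Srebf2 and Scap differed by 0.58 ± 0.73, 0.34 ± 0.48 and 0.04 ± 0.86 (log2, SE), within the spread between libraries, with limma adjusted p of 0.6199, 0.6631 and 0.9809.

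With vehicle replicate 3 and KIRA6 replicate 1 both removed, the counts in the fatty acid arm and the regulators were higher. Then 7 fatty acid genes were called higher and 1, Acly, lower, and 4 regulators higher. Fasn had a log2 fold change of 2.81, Srebf1 of 1.85, Scap of 1.54, Srebf2 of 1.17 and Fads2 of 0.96. Sterol genes called higher numbered 11 (52.4% of the arm), and lower 3. These values are a description and support no direction, because removing the high vehicle library and the low KIRA6 library fixes the sign in genes of this pattern as well as narrowing the spread. Across all genes, the deviations of vehicle replicates 1 and 2 correlated with those of KIRA6 replicate 1 (0.76 and 0.71), and those of vehicle replicate 3 with KIRA6 replicates 2 and 3 (0.52 and 0.74), so in the 4 libraries that remain this difference between libraries and the treatment cannot be told apart. Over all genes 4227 (35.9%) were called higher in place of 1843 (15.6%), and 2383 lower in place of 940. With either library alone left out, Fasn, Scap, Srebf1, Srebf2 and Fads2 were not called. Leaving out vehicle replicate 1 turned the log2 fold change of Fasn to −0.65 and that of Scap to −0.59.

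The members that varied most between libraries were rich in G and C. Fasn, Scap, Srebf1, Srebf2 and Fads2, the 5 members with the largest spread within groups, had GC contents of 57.9%, 59.1%, 58.4%, 57.9% and 54.4% in their longest transcript, against a median of 49.3% for the 36 members. Across the 36 genes, the excess of vehicle replicate 3 over the other vehicle libraries had a Spearman rho of 0.65 with GC content, and 0.38 across 11652 tested genes. The deviation of KIRA6 replicate 1 from its group had a rho of −0.41 with GC content across the members and −0.08 across all genes. These correlations are across genes of the same libraries, and genes are not independent replicates. GC content did not order all members: Mvd, Pmvk and Mvk had 59.0%, 57.0% and 56.3%, and vehicle replicate 3 differed from the mean of its group's other libraries by 0.60, −0.31 and 0.17 (log2). The part of GC content in the differences between libraries was not tested.

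**Figure D4:**
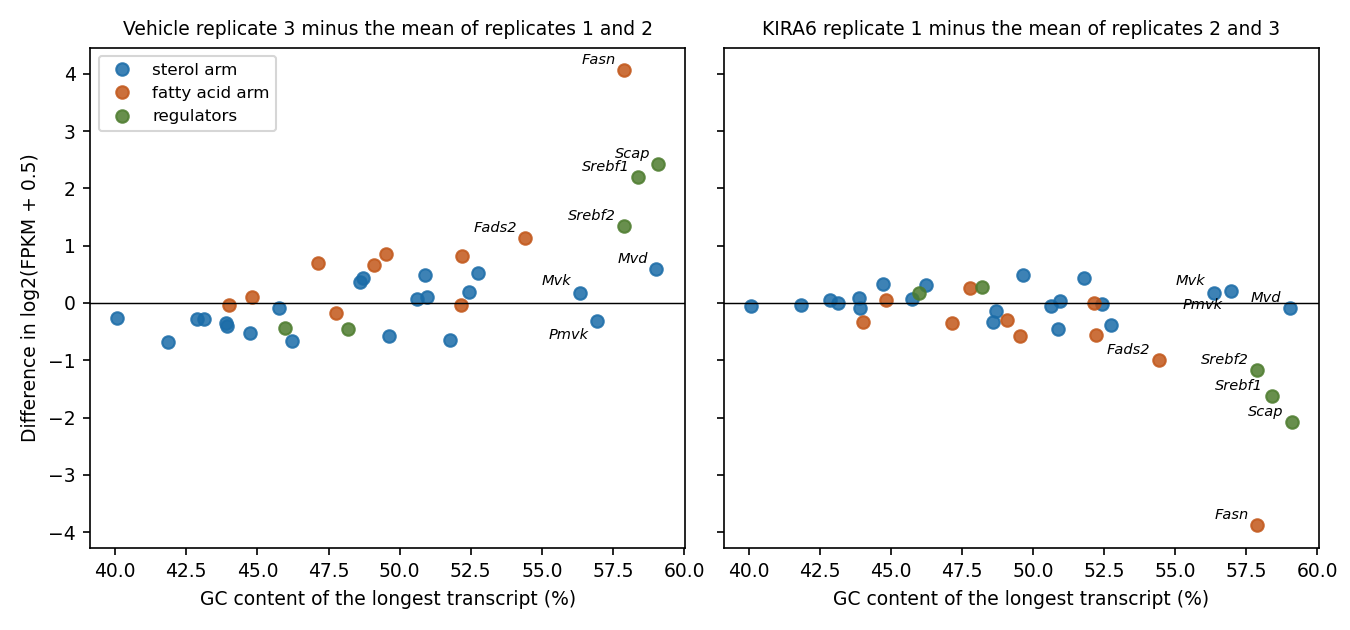
Difference in log2(FPKM + 0.5) of the library that stood apart from the mean of the other 2 libraries of its group (left, vehicle replicate 3; right, KIRA6 replicate 1) against the GC content of the longest transcript, for each of the 36 genes. Fasn lies at 4.06 and −3.88, and the members under 50% GC lie between −0.68 and 0.85 on the left and between −0.57 and 0.49 on the right.

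Genes around the 2 arms, from lists of 78 further genes of which 69 were tested, were mixed. Of 6 other sterol enzymes 1 rose and none fell, beside 15.6% called higher and 7.98% lower over all genes. It was the electron donor Cyb5r3 (log2 fold change 0.53, limma adjusted p = 0.02694). Its call was lost when any library but vehicle replicate 3 or KIRA6 replicate 1 was left out (adjusted p up to 0.121). None of 7 partners of SREBP cleavage and sterol sensing was called, among them the proteases Mbtps1 and Mbtps2.

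Of 9 tested genes of sterol uptake, export and storage 2 rose and 1 fell, beside 15.6% and 7.98% over all genes. Soat1, which esterifies cholesterol for storage, fell from 11.8 ± 0.815 to 5.08 ± 0.792 FPKM (log2 fold change −1.15, limma adjusted p = 0.003644), and its call held in all 19 alternative fits. Nr1h2, the liver X receptor beta, rose from 8.26 ± 1.03 to 16.3 ± 0.991 FPKM (0.94, limma adjusted p = 0.005445), a call that ended with the GC and length correction. Mylip, a ubiquitin ligase, was the other that rose, with a call that ended when any 1 library was left out.

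Of 11 genes of the isoprenoid branches Dhdds, of dolichol synthesis, rose (log2 fold change 0.43) and Pdss1 and Rabggta fell. Called higher were 9.09% and lower 18.2% of these genes, beside 15.6% and 7.98% over all genes. Pdss1, which builds the side chain of ubiquinone, fell from 9.46 ± 2.90 to 3.87 ± 0.425 FPKM (−1.15, limma adjusted p = 0.01817). Of 19 tested genes of other fatty acid synthesis, elongation and activation 3 rose and 2 fell, close to the shares over all genes (15.6% and 7.98%). The largest of each were Elovl7, an elongase (0.67, limma adjusted p = 0.01203), and Hacd3, a dehydratase of elongation, which fell from 57.9 ± 10.5 to 31.3 ± 3.54 FPKM (−0.87, limma adjusted p = 0.01593). Of 17 glycerolipid genes 3 rose and 2 fell, again near the 15.6% and 7.98% over all genes. They were led by the phosphatidate phosphatase Lpin1, from 0.583 ± 0.217 to 1.95 ± 0.607 FPKM (1.16, limma adjusted p = 0.01725), and the acyltransferase Agpat5, from 10.8 ± 2.29 to 4.11 ± 0.793 FPKM (−1.28, limma adjusted p = 0.007668). The calls of Pdss1, Hacd3 and Lpin1 ended when any library but vehicle replicate 3 or KIRA6 replicate 1 was left out, that of Rabggta when any was, that of Dhdds when any but vehicle replicate 3 was, and that of Elovl7 without vehicle replicate 2 or KIRA6 replicate 2.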

How the data were processed

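The authors deposited 1 table of FPKM values per gene, rounded to 2 decimals, with exonic lengths and coordinates on GRCm39. Tools listed in the submitters' processing notes are cutadapt 1.9.1 (trimming software), HISAT2 2.2.1 (an aligner), HTSeq 0.6.1 (a counter) and DESeq2 1.34.0. No settings, and no counting strand, are given there. Libraries were made from poly(A) RNA and keep strand, per the labels' protocols. Depth was recovered from the steps between low values (429 to 553 values a library, all within 0.1 fragment of a whole number).

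Genes averaging 0.5 FPKM or more (11778) were tested on log2(FPKM + 0.5) using limma 3.58.1 under R 4.3.3 (two-sided, trend, robust empirical Bayes, Benjamini-Hochberg over all of them, call at 0.05). In simulated data with known changes the procedure recovered 4% of 1.5-fold, 36% of 2-fold, 82% of 4-fold and 96% of 8-fold changes. It made 114 calls there, of which 5 were false, against 2783 calls in the data, so these shares may not carry over. A gene without a call may still have changed. Errors are SD between 3 libraries or limma SE. An exact permutation of 3 against 3 cannot give a p below 0.1. GC content came from GENCODE M21 transcripts, matched by identifier (91.9% of genes, all 36 members), and promoters from RefSeq (GRCm38.p6).

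The members and lists were chosen with earlier results of these data known. The naming rule takes every called member, gives values per library for the regulators, paralogue pairs, Fasn, Hmgcs1, Sqle and the largest called change of each arm and direction, and names the largest called change of each further list in each direction. Of 19 alternative fits 3 were added after seeing the data: removal of vehicle replicate 3 together with KIRA6 replicate 1, and correcting for GC content and gene length, alone and with the replicate block. Some genes of the lists are not reported here.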

Additional observations from a re-analysis of the deposited data

How the results depend on the processing

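In 19 alternative fits Hmgcs1, Acss2, Insig2 and Tmem97 kept their calls and directions. The 6 fits without 1 library each gave 1 to 8 sterol genes higher and 1 lower, a sterol median of 0.27 to 0.53, 1 to 3 fatty acid genes higher and 0 lower, a fatty acid median of 0.01 to 0.53, 1 regulator higher and 0 lower, and 817 to 2064 genes higher and 394 to 1328 lower over all. Without vehicle replicate 3 and KIRA6 replicate 1 together the sterol median was 0.37 (11 higher, 3 lower), the fatty acid median 0.79 (7 and 1), 4 regulators were higher, and 4227 and 2383 genes were called over all.

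Array weights, whose estimation stopped before reaching its tolerance, called 6046 genes higher and 3957 lower, 13 and 5 in the sterol arm (median 0.31), 7 and 3 in the fatty acid arm and 4 regulators higher. In that fit 61.9% of the sterol arm and 51.3% of all tested genes were called higher. Median-ratio scaling called 1438 genes lower over all, 4 sterol genes higher (median 0.29) and 2 fatty acid genes lower. It put the share of higher calls over all genes at 47.4% in place of 66.2%. Quantile normalization called 1132 genes higher over all, with a share of 48.9%. Without a filter 22295 genes were tested and 5 sterol genes were called higher (23.8% of the arm, beside 7.18% of all tested genes). The GC and length correction called 1864 genes lower over all, with a share of 47.3%, 2 sterol genes lower (median 0.31) and 3 fatty acid genes lower.

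The labels number the replicates 1 to 3 in both groups. Deviations of same-numbered libraries correlated at 0.76, −0.47 and 0.74, and vehicle replicate 2 correlated best with KIRA6 replicate 1 (0.71). Deviations of 3 libraries from their own mean are tied to one another. These correlations therefore cannot decide whether the numbers pair the samples. The replicate block called 2883 genes higher and 1540 lower, and 3 fatty acid genes higher (Acss2, Scd1 and Scd2, the latter pair not called in the same fit without it) and 1 lower (Elovl5). With the GC and length correction the replicate block called 2718 genes lower over all, 2 sterol genes lower (median 0.31), and 3 fatty acid genes higher and 3 lower.

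Some small fold changes turned sign, and the cause was not tested. Median-ratio scaling gave Dhcr7 −0.094, Fads1 −0.011, Fasn −0.019, Ggps1 −0.027, Sc5d −0.086, Scap −0.14 and Sqle −0.034. Quantile normalization gave Dhcr7 −0.018, Ggps1 −0.11 and Scap −0.088. The GC and length correction, with and without the replicate block, gave Dhcr7 −0.037, Fasn −0.19, Ggps1 −0.14, Sc5d −0.10 and Scap −0.32. Array weights gave Insig1 −0.073 and Sc5d −0.028. Removing vehicle replicate 3 together with KIRA6 replicate 1 gave Insig1 −0.013, Sc5d −0.014 and Lss 0.00055. With 1 library left out, Dhcr7 ran from −0.038 to 0.26, Fasn from −0.65 to 1.52, Msmo1 from −0.24 to 0.022 and Scap from −0.59 to 0.85.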
